A study of Mus musculus with 12 samples.

Results

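The expression of 10 genes of ATP-binding cassette (ABC) efflux pumps was followed in the liver of Pml KO and Pml wt mice after an overdose of acetaminophen (APAP). The genes were Abcc1, Abcc2, Abcc3, Abcc4, Abcc5, Abcc6, Abcb1a, Abcb1b, Abcb4 and Abcg2, taken by name as the pumps of the liver's drug export. They were listed with earlier results of these data known. They are 10 of 18820 genes that have a probe set of their own on the Affymetrix Mouse Gene 1.1 ST array, and each is read by 1 such probe set. Total RNA came from the livers of female BALB/cByJ mice aged 2.5 months, with 2 arrays in each of 6 groups. These were KO liver untreated, 2 h and 6 h after APAP, and wt liver untreated, 2 h and 6 h after APAP. APAP was given intraperitoneally at 300 mg/kg in warmed PBS, and the untreated mice are described only as such; the sources used here give no vehicle injection for them. All mice shared the strain, sex and age. The sources used here give neither the deleted part of Pml nor whether each array stands for a separate animal. The p-values therefore measure only how much these samples vary, which may be technical.

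ABC pumps use ATP to move their substrates out of the cell, against a gradient. In hepatocytes the pumps of the canalicular membrane (ABCC2, ABCB4, ABCG2 and P-glycoprotein) empty into bile, and those of the sinusoidal membrane (ABCC3, ABCC4 and, in injured liver, ABCC1) empty into blood. APAP is cleared mainly as glucuronide and sulfate, and its reactive metabolite as a glutathione conjugate, all of which leave the hepatocyte through such pumps.

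All values are log2 of the normalized array intensity, differences are between means of 2 arrays, and the error after ± is the standard error of the fit unless SD is written. Differences were tested with limma over 17052 genes, and a gene was called at a Benjamini-Hochberg adjusted p under 0.05 over all of them. Levels of different probe sets are not comparable with each other. The array median was 79.9 to 90.1 on the intensity scale, and precision is limited by having 2 arrays a group. Pml, the targeted gene, had 7.10 and 7.97 in KO liver before APAP, 7.11 and 7.50 after 2 h, and 7.09 and 7.16 after 6 h. The wt arrays had 8.18 and 8.46 before APAP, 7.82 and 7.92 after 2 h, and 7.87 and 7.88 after 6 h. Pml was lower in KO than in wt liver of the same condition on every array, and the KO minus wt value averaged over the 3 conditions was -0.70 ± 0.14 (adjusted p = 0.0346). The array labelled untreated KO replicate 2 had a Pml value within the range of the wt arrays, and whether its probe set lies in the deleted part is not known. KO 6 h replicate 2 stood apart from its partner on the first principal component, at 19.8 against 39.7 for replicate 1. Hepatocyte markers (6 of 6 tested: Alb, Apoa1, Ttr, Cps1, Tat and Hnf4a) lay between 11.39 and 13.48 on the 12 arrays. Their summed intensity was 42503 to 45554 in untreated KO liver, 46863 to 47245 at 2 h and 38832 to 41095 at 6 h, and 44302 to 46944 in untreated wt liver, 49343 to 49947 at 2 h and 43183 to 43984 at 6 h. In whole liver, fewer cells of a type and less RNA per cell cannot be told apart.

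APAP moved the pump genes in different directions. Abcb4 and Abcc2 rose at 2 h in both genotypes, Abcc6 fell at both times in both genotypes, and Abcc1 rose at 6 h in both. Abcc4 rose 4.33-fold in KO liver at 6 h, did not pass the test in wt liver, and was the one pump gene whose 6 h response was called different between genotypes. In KO liver at 2 h, 6 of the 10 genes passed the test (3 higher and 3 lower), where 31.4% of all tested genes did (10.6% higher and 20.8% lower). In wt liver at 2 h, 4 passed (2 higher and 2 lower), where 12.7% of all tested genes did (6.53% higher and 6.17% lower). In KO liver at 6 h, 5 passed (2 higher and 3 lower), where 34.9% did (15.8% higher and 19.1% lower). In wt liver at 6 h, 2 passed (1 higher and 1 lower), where 38.4% did (16.5% higher and 22% lower). The counts at 6 h are thus read against a background in which a large share of all genes passed. The same shares apply to the list and marker counts against untreated liver given below. The median difference of the 10 genes at 6 h was 0.10 in KO liver and 0.20 in wt liver, against -0.05 over all genes in each genotype.

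**Figure D1:**
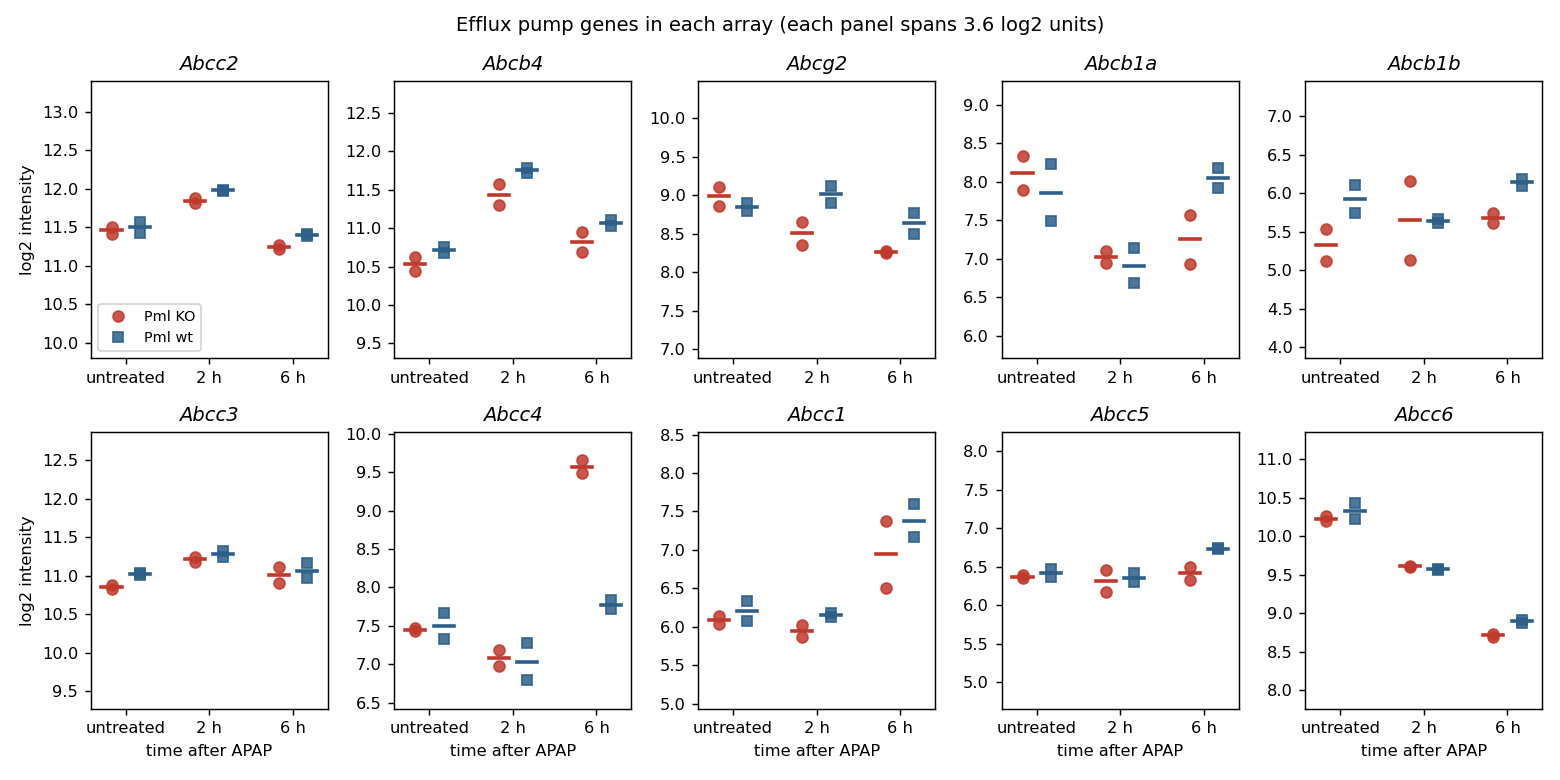
Log2 intensity of the 10 pump genes on each of the 12 arrays, 1 panel per gene, in untreated liver and 2 h and 6 h after APAP. Red circles are KO arrays and blue squares wt arrays, and short lines are means of 2 arrays. The 2 KO arrays of Abcc4 at 6 h lie at 9.49 and 9.65, above every other array of that gene.

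The sinusoidal exporters were taken first. ABCC4 (MRP4) exports cyclic nucleotides, sulfated steroids and bile acids with glutathione into sinusoidal blood, and Abcc4 is a known target of NRF2 in mouse liver. Abcc4 had 7.44 and 7.47 in untreated KO liver, then 7.19 and 6.98 after 2 h of APAP and 9.49 and 9.65 after 6 h. In wt liver its values were 7.33 and 7.67 before APAP, 7.28 and 6.80 after 2 h, and 7.83 and 7.72 after 6 h. Both KO arrays at 6 h stood above all other 10 arrays, and the untreated arrays of the 2 genotypes overlapped. The wt arrays at 6 h were just above the untreated wt arrays, without overlap.

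Against untreated KO liver, Abcc4 at 6 h was higher by 2.12 ± 0.17, which is 4.33-fold with a 95% interval of 3.35 to 5.61 (adjusted p = 1.96e-05). Among the 2700 genes called higher in this comparison it ranked 90 by size. In wt liver at 6 h the difference was 0.28 ± 0.17, or 1.21-fold with an interval of 0.937 to 1.57 (adjusted p = 0.22), and it ran from 0.11 to 0.45 when 1 array was left out, called in none of these fits. At 2 h Abcc4 had means below the untreated ones that did not pass the test, with differences of -0.37 ± 0.17 in KO liver (adjusted p = 0.119) and -0.46 ± 0.17 in wt liver (adjusted p = 0.102). Relative to 2 h, Abcc4 rose by 6 h in both genotypes, 5.59-fold in KO liver (adjusted p = 2.46e-05) and by 0.74 ± 0.17 in wt liver (adjusted p = 0.00942). The wt call was lost without wt 2 h replicate 2 (0.50, adjusted p = 0.0764) and without wt 6 h replicate 1 (0.68, adjusted p = 0.0527).

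The genotypes were set against each other to ask whether Pml status altered the pumps at rest or after the overdose. Abcc4 differed by -0.04 ± 0.17 between untreated KO and wt liver, by 0.05 ± 0.17 at 2 h (adjusted p = 0.889), and by 1.79 ± 0.17 at 6 h (adjusted p = 0.000613). The 6 h difference is 3.46-fold with an interval of 2.68 to 4.48. It was the only one of the 10 genes called between genotypes at 6 h, where 9.02% of all tested genes were called (4.09% higher and 4.93% lower), and it ranked 9 by size among the 698 genes called higher in KO. The 6 h response in KO minus that in wt was 1.84 ± 0.24, or 3.57-fold with an interval of 2.48 to 5.14 (adjusted p = 0.0109). Again 1 of the 10 genes was called, against 0.487% of all tested genes (0.088% with a larger response in KO and 0.399% with a smaller one), and Abcc4 ranked 4 among the 15 genes with a larger response in KO. Without the array labelled untreated KO replicate 2 the difference in response was 1.85 with an adjusted p of 0.0537. The rise in KO liver and the KO against wt difference at 6 h were called in every fit that left out 1 array, at 2.03 to 2.20 and at 1.71 to 1.88. Markers of other cells differed between the genotypes at 6 h in both directions. The 7 Kupffer cell markers, all tested, had KO minus wt differences of 0.06 to 0.80, with 1 called higher (Adgre1, adjusted p = 0.0136) and 3 at an unadjusted p under 0.05, and summed to 3147 to 3489 in KO liver, against 2487 to 2937 in wt liver. Neutrophil markers (6 of 6 tested) had 5 of 6 lower in KO liver, and summed to 407 to 498 in KO liver at 6 h, against 1848 to 3426 in wt liver at 6 h. Also lower in KO liver were 2 of 2 tested erythroid markers, 2 of 4 cholangiocyte markers and 2 of 8 endothelial markers. Of the 6 hepatocyte markers 1 was called, Tat, lower in KO (-0.74, adjusted p = 0.00507). The hepatocyte sum at 6 h was 38832 to 41095 in KO liver, against 43183 to 43984 in wt liver. Stellate cell markers had 0 of 7 called and 2 at an unadjusted p under 0.05, and lymphocyte markers 0 of 4 and 1. The part of these cells in the Abcc4 difference was not tested.

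Upstream sequences of the pump genes were taken from RefSeq (build GRCm38.p6) as the 250 bases before each annotated start. Entries were matched for 7 of the 10 genes, which are all but Abcc1, Abcc3 and Abcc6. The 3 motifs below were searched on both strands. TGACNNNGC, the core of the antioxidant response element bound by NRF2, occurred in 10.2% of 32851 such windows of all genes. TGANTCA, the AP-1 element, occurred in 6.75%, and AGGTCA, a binding element shared by several nuclear receptors, in 14.0%. The letters of TGACNNNGC can overlap with those of TGANTCA and of AGGTCA read on the other strand. No such overlap was present in the windows shown. The sequences of Abcc4 are shown because of its change in KO liver, and those of Abcc2 and Abcb4 because both rose at 2 h. Lower case is genomic sequence 5′ to 3′ on the gene's strand, and capitals mark the motif matches. Abcc4 has a pair of annotated starts, at chr14:118706220-118706469 and chr14:118676932-118677181 (minus strand). Abcc2 is at chr19:43782058-43782307 and Abcb4 at chr5:8893471-8893720 (plus strand).
Abcc4, first start: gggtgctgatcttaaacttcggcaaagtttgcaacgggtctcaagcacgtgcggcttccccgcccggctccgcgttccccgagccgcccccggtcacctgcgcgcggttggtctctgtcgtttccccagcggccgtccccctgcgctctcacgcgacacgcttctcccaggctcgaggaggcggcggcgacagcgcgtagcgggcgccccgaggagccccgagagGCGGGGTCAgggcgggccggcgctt
Abcc4, second start: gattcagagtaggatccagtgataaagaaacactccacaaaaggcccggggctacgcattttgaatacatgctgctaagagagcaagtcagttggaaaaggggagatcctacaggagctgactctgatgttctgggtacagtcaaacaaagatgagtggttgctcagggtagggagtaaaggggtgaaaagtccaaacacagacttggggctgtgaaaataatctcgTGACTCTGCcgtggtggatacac
Abcc2: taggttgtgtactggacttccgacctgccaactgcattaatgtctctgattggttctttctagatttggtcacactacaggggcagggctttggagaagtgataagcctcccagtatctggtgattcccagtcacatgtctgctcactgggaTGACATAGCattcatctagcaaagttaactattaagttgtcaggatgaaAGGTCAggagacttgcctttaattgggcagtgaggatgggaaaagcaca
Abcb4: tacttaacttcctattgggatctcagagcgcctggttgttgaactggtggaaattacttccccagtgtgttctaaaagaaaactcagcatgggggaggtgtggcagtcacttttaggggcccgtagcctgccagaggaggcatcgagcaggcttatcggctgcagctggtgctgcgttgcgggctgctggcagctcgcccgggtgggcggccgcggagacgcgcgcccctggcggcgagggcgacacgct

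Each Abcc4 window held 1 match to TGACNNNGC close to the start, GCGGGGTCA (read on the other strand) at base -25 of the first and TGACTCTGC at base -23 of the second, counted from the start. The Abcc2 window held TGACATAGC at -98 and AGGTCA at -49. The Abcb4 window held no match, and 0 of the 7 genes held TGANTCA. Abcg2 was the other gene with AGGTCA.

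Abcc4 was set beside 21 tested NRF2 target genes that are not pumps. At 6 h, 13 of 21 rose and 1 fell in KO liver, where 15.8% of all tested genes were called higher and 19.1% lower. In wt liver 11 rose and 4 fell, where 16.5% and 22% of all tested genes did. The median difference of the 21 genes was 0.79 in KO liver and 0.53 in wt liver, against -0.05 over all genes in both. Srxn1 (sulfiredoxin) rose by 4.38 ± 0.21 in KO liver and 4.42 ± 0.21 in wt liver, and Txnrd1 (thioredoxin reductase) by 2.19 ± 0.13 in KO liver and 2.31 ± 0.13 in wt liver. Ugdh, which makes the UDP-glucuronic acid used in glucuronidation, rose by 1.50 ± 0.14 in KO liver and 0.92 ± 0.14 in wt liver. Between genotypes at 6 h, 4.09% of all tested genes were called higher in KO and 4.93% lower. Of the 21, 3 were higher in KO and 0 lower: Pgd (0.64, adjusted p = 0.0247), Ugdh (0.60, adjusted p = 0.0269) and Gstm1 (0.51, adjusted p = 0.0382). This count ran from 0 to 6 when 1 array was left out. In limma 0 of the 21 were called for a difference in response at 6 h, where 0.487% of all tested genes were called. Of the 21, 6 had an unadjusted p under 0.05 in this test. Hmox1 (-0.68) and Osgin1 (-0.62) had lower means in KO than in wt liver at 6 h and were not called. Of the 21, 4 were called between genotypes at 2 h, all higher in KO: Hmox1 (2.13), Osgin1 (1.27), Txnrd1 (0.81) and Sqstm1 (0.44). At that time 0.411% of all tested genes were called higher in KO, and Abcc4 differed by 0.05.

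Nqo1, a quinone reductase often read as an NRF2 reporter, had 8.26 and 8.30 in KO liver at 6 h, against 7.03 and 7.79 in wt liver at 6 h. The KO arrays were higher without overlap, and the difference of 0.87 ± 0.26 did not pass the test (adjusted p = 0.0627). Slc7a11, the cystine importer, was named after its values were seen and had 11.27 and 6.61 in KO liver at 6 h, against 10.81 and 10.84 in wt liver at 6 h. The low value belongs to KO 6 h replicate 2, on which Abcc4 was as high as on replicate 1.

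**Figure D2:**
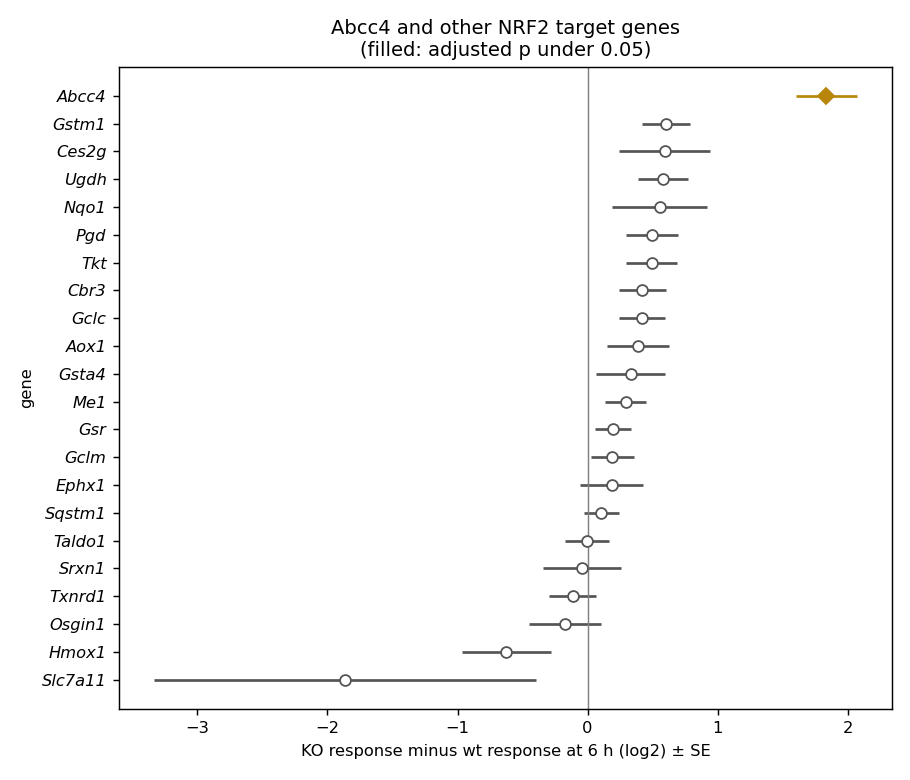
Log2 response at 6 h in KO liver minus that in wt liver (x axis) for Abcc4 (gold diamond) and the 21 tested NRF2 target genes that are not pumps (circles), 1 gene per line in order of the value, with bars of 1 standard error. Filled markers have an adjusted p under 0.05. Abcc4 lies at 1.84 and is the one filled marker, and the long bar at the bottom is that of Slc7a11, whose KO arrays at 6 h differed.

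Among 18 tested regulators of pump genes, Maff, Mafk and Bach1, which bind antioxidant response elements with or against NRF2, rose at 6 h in both genotypes. Maff, a small MAF partner, rose at 6 h by 3.48 ± 0.63 in KO liver and 6.84 ± 0.63 in wt liver. Bach1, the repressor that competes for the same sites, rose by 1.04 ± 0.25 in KO liver and 2.12 ± 0.25 in wt liver. Between genotypes at 6 h, Maff (-2.63), Mafk (-1.04) and Bach1 (-1.21) were lower in KO, with adjusted p of 0.0316, 0.0347 and 0.0201. Nr1h3 (LXR alpha, 0.57) and Foxa2 (0.95) were higher in KO, with adjusted p of 0.0126 and 0.0351. In this comparison 5 of the 18 were called, where 4.09% of all tested genes were called higher in KO and 4.93% lower. The neutrophil markers were lower in KO at 6 h, as given above, and their part in these 6 h differences was not tested. At 2 h the direction was the other way for Maff (1.72), Mafk (0.69) and Bach1 (0.56), with higher means in KO that were not called. Of the 18, 1 was called between genotypes at 2 h: Foxa2, higher in KO (1.47, adjusted p = 0.0226). Of all tested genes, 0.411% were called higher in KO at 2 h and 1.6% lower. In all, 4 of the 18 rose and 7 fell in KO liver at 6 h, where 15.8% of all tested genes were called higher and 19.1% lower. In wt liver 4 rose and 9 fell, where 16.5% and 22% of all tested genes did. The falls at 6 h included Nr1h4 (FXR), which drives Abcb11 and other bile acid exporters, at -0.85 ± 0.16 in KO liver and -0.94 ± 0.16 in wt liver. They also included Nr1i2 (PXR), the drug-sensing receptor, at -0.87 ± 0.16 in KO liver and -0.51 ± 0.16 in wt liver. Nfe2l2 (NRF2) had 0.18 ± 0.13 in KO liver and 0.30 ± 0.13 in wt liver at 6 h and was called in neither.

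By the root mean square distance of log2 values centred over the 12 arrays, the genes nearest to Abcc4 were Pfn2 (0.36), Dyrk3 (0.37) and Mlkl (0.38). The spread of Abcc4 itself about its mean was 0.87 on the same scale. Mlkl, the executor of necroptosis, averaged 9.25 in KO liver and 8.52 in wt liver at 6 h.

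ABCC3 (MRP3) carries glucuronides, APAP glucuronide among them, into blood. Abcc3 had 10.82 and 10.88 in untreated KO liver, then 11.18 and 11.25 after 2 h of APAP and 10.90 and 11.11 after 6 h. Values in wt liver were 11.01 and 11.03 before APAP, 11.24 and 11.32 after 2 h, and 11.16 and 10.97 after 6 h. The 2 h arrays stood above the untreated ones without overlap in both genotypes. The rise was called in KO liver (0.36 ± 0.11, adjusted p = 0.0279) and not in wt liver (0.26 ± 0.11, adjusted p = 0.143), and the difference between the 2 responses was 0.10 ± 0.15 and not called. In KO liver the call was lost in a fit of the compared groups alone (adjusted p = 0.0612) and without any one of the 4 compared arrays (adjusted p up to 0.122).

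ABCC1 (MRP1) exports glutathione conjugates and is scarce in the resting hepatocyte. Abcc1 had 6.15 and 6.04 in untreated KO liver, then 5.87 and 6.02 after 2 h of APAP and 7.38 and 6.50 after 6 h. The wt livers gave 6.08 and 6.33 before APAP, 6.13 and 6.18 after 2 h, and 7.16 and 7.60 after 6 h. All 4 arrays at 6 h stood above the other 8. Abcc1 rose at 6 h by 0.85 ± 0.24 in KO liver (adjusted p = 0.0213) and by 1.18 ± 0.24 in wt liver (adjusted p = 0.00349). The KO arrays at 6 h differed, and without replicate 1 the KO difference was 0.41 (adjusted p = 0.154), while without replicate 2 it was 1.29. The KO call was also lost without untreated KO replicate 1 (adjusted p = 0.0641) or the array labelled untreated KO replicate 2 (adjusted p = 0.1), and in a fit of the compared groups alone (adjusted p = 0.0707). The wt rise was called in every fit that left out 1 array, at 0.96 to 1.40. Between genotypes at 6 h Abcc1 differed by -0.44 ± 0.24 (adjusted p = 0.264), and without KO 6 h replicate 1 by -0.88 (adjusted p = 0.0216).

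Some markers of other cells were higher at 6 h, as Abcc1 was, and others were not. In KO liver at 6 h the cholangiocyte markers Krt19 (-0.38) and Krt7 (-0.12) had negative differences that were not called. Kupffer cell markers summed to less at 6 h than untreated in both genotypes, as given below. Of 4 cholangiocyte markers tested, 2 were higher at 6 h in each genotype, and their summed intensity was 398 to 848 in KO liver at 6 h against 303 to 344 untreated, and 726 to 1004 in wt liver at 6 h against 336 to 360 untreated. The low KO value is that of replicate 2, the array with the lower Abcc1. Neutrophil markers (6 of 6 tested) summed to 407 to 498 in KO liver at 6 h against 338 to 351 untreated, with 0 of 6 called and 1 of 6 at an unadjusted p under 0.05, and to 1848 to 3426 in wt liver at 6 h against 344 to 352 untreated, with 5 of 6 higher. No tested marker was at 0. The part of these cells in the Abcc1 values was not tested.

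ABCC5 (MRP5) exports cyclic nucleotides and is found in many tissues. Abcc5 varied little, between 6.17 and 6.74 over the 12 arrays. It had 6.33 and 6.50 in KO liver at 6 h, against 6.39 and 6.36 untreated, and 6.73 and 6.74 in wt liver at 6 h, against 6.48 and 6.37 untreated. The wt arrays at 6 h were the highest of all 12. The difference was 0.04 ± 0.12 in KO liver (adjusted p = 0.807) and 0.31 ± 0.12 in wt liver (adjusted p = 0.0578), and neither was called. The wt difference was called under 3 alternatives, with quantile normalization (adjusted p = 0.0492) and without either KO 2 h array (adjusted p = 0.0358).

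ABCC6 (MRP6) sits on the sinusoidal side of hepatocytes and drives the release of ATP, the source of the calcification inhibitor pyrophosphate in blood; it is counted among the drug pumps by family more than by substrate. Abcc6 had 10.20 and 10.26 in untreated KO liver, then 9.61 and 9.60 after 2 h of APAP and 8.74 and 8.69 after 6 h. Wt values were 10.22 and 10.43 before APAP, 9.57 and 9.57 after 2 h, and 8.91 and 8.88 after 6 h. Each time point stood below the one before it with no overlap in either genotype. The fall at 2 h was -0.62 ± 0.10 in KO liver (adjusted p = 0.00153) and -0.76 ± 0.10 in wt liver (adjusted p = 0.00104). At 6 h Abcc6 was 2.87-fold lower in KO liver (-1.52 ± 0.10, adjusted p = 7.38e-06) and 2.70-fold lower in wt liver (-1.43 ± 0.10, adjusted p = 8.11e-06). All 4 falls were called under every alternative. The 6 h response in KO minus that in wt was -0.09 ± 0.14, with a 95% interval of -0.39 to 0.22.

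The genes nearest to Abcc6 over the 12 arrays were Nlrp6 (0.0833), Aldh4a1 (0.0916) and Ugt2a3 (0.106), against a spread of Abcc6 itself of 0.61. The summed hepatocyte markers, given above, were higher than untreated at 2 h and lower at 6 h in both genotypes, without overlap. Of the 6 markers, 0 were called in KO liver at 2 h and 1 in wt liver (Tat, higher). At 6 h, 2 were called in KO liver (Tat and Ttr, lower) and 1 in wt liver (Ttr, lower). Single markers also went against the sum, as Ttr at 2 h (-0.22 in KO and -0.09 in wt liver) and Tat in wt liver at 6 h (0.25), and these were not called. On the log2 scale the sum averaged 15.43 in untreated KO liver, 15.52 at 2 h and 15.29 at 6 h, and 15.48 in untreated wt liver, 15.60 at 2 h and 15.41 at 6 h. Its part in the change of Abcc6 was not tested.

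The canalicular pumps form the other group. ABCC2 (MRP2) exports glucuronides and glutathione conjugates, bilirubin glucuronide among them, into bile. Abcc2 had 11.42 and 11.50 in untreated KO liver, then 11.82 and 11.88 after 2 h of APAP and 11.28 and 11.22 after 6 h. In wt liver its values were 11.43 and 11.58 before APAP, 11.98 and 11.99 after 2 h, and 11.39 and 11.41 after 6 h. The 2 h arrays were the highest in each genotype and the 6 h arrays the lowest. Abcc2 rose at 2 h by 0.39 ± 0.09 in KO liver (adjusted p = 0.0117) and by 0.48 ± 0.09 in wt liver (adjusted p = 0.00917), and fell between 2 h and 6 h, with differences of -0.60 in KO liver and -0.58 in wt liver (adjusted p = 0.0012 and 0.002). Against untreated liver the 6 h values were not called, at -0.21 ± 0.09 in KO liver (adjusted p = 0.105) and -0.10 ± 0.09 in wt liver (adjusted p = 0.42). The KO value at 6 h was called with a variance trend (adjusted p = 0.0352). The KO call at 2 h was lost without untreated replicate 1 (adjusted p = 0.0743) or 2 h replicate 2 (0.0532) and in a fit of the compared groups alone (0.0526), and the wt call without untreated replicate 1 (0.0729) or either 2 h array (0.0592 and 0.0587).

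ABCB4 (MDR2 in mice) flops phosphatidylcholine into bile, where it shields the ducts from bile salts. Abcb4 had 10.44 and 10.62 in untreated KO liver, then 11.29 and 11.57 after 2 h of APAP and 10.95 and 10.69 after 6 h. Values in wt liver were 10.68 and 10.75 before APAP, 11.72 and 11.78 after 2 h, and 11.10 and 11.02 after 6 h. The 2 h arrays were highest in each genotype, and the 6 h arrays lay between them and the untreated ones without overlap. The rise at 2 h was 1.86-fold in KO liver (0.90 ± 0.13, adjusted p = 0.000979) and 2.05-fold in wt liver (1.03 ± 0.13, adjusted p = 0.000842). At 6 h the difference from untreated was 0.29 ± 0.13 in KO liver (adjusted p = 0.107) and 0.35 ± 0.13 in wt liver (adjusted p = 0.0556). The wt difference at 6 h was called under 8 alternatives, with an adjusted p down to 0.0199 (quantile normalization). Both 2 h calls held under every alternative. The genes nearest to Abcb4 were Mgll (0.103), Tor1a (0.113) and Eci1 (0.114), against a spread of Abcb4 of 0.43.

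**Figure D3:**
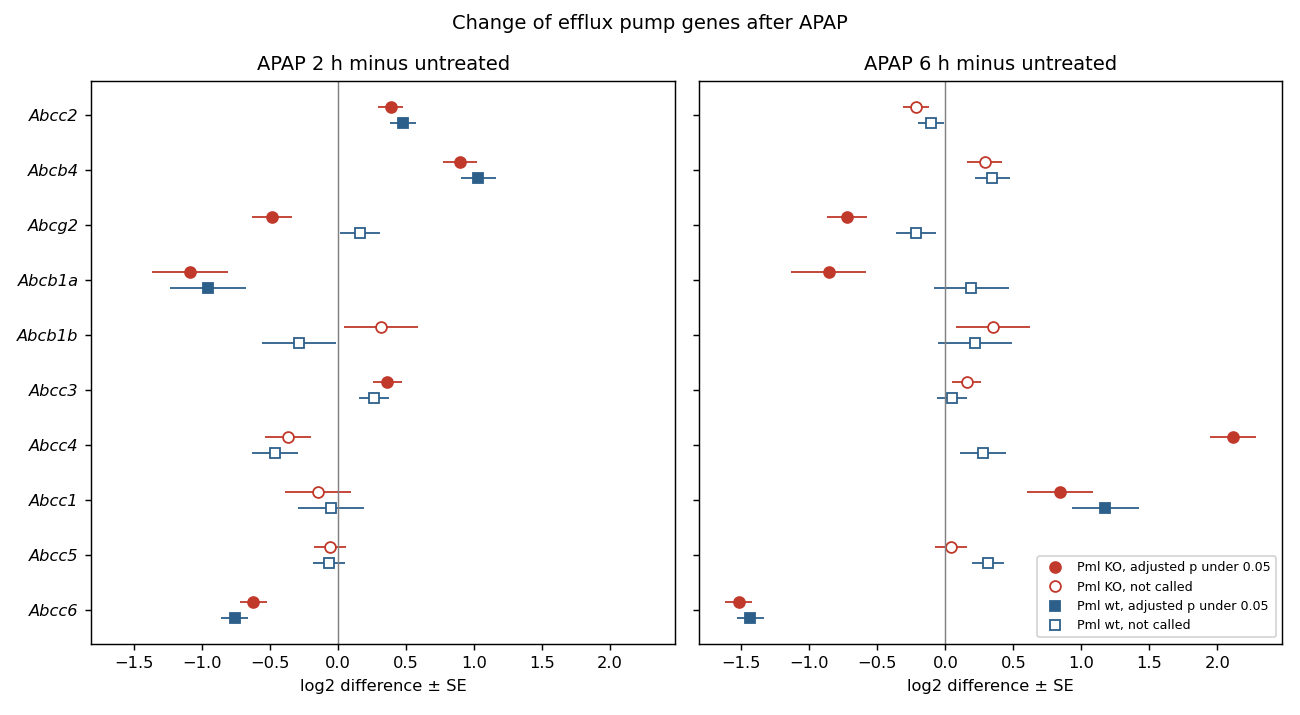
Log2 difference from untreated liver of the same genotype (x axis) for the 10 pump genes, 2 h after APAP in the left panel and 6 h in the right, with bars of 1 standard error. Red circles are KO and blue squares wt, and filled markers have an adjusted p under 0.05. Abcb4 and Abcc2 lie above 0 at 2 h in both genotypes, Abcc6 lies below 0 throughout, and Abcc4 at 6 h lies at 2.12 in KO and 0.28 in wt.

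ABCB1A and ABCB1B are the 2 mouse forms of P-glycoprotein, which exports bulky lipophilic drugs. Abcb1a, Abcb1b and Abcb4 are neighbours on chromosome 5, and Abcb1a and Abcb1b are close paralogs, so signal shared between their probe sets cannot be told apart. Abcb1a had 7.89 and 8.33 in untreated KO liver, then 7.10 and 6.95 after 2 h of APAP and 6.93 and 7.57 after 6 h. The wt livers gave 7.49 and 8.23 before APAP, 7.13 and 6.68 after 2 h, and 8.18 and 7.92 after 6 h. All 4 arrays at 2 h were below the untreated arrays of their genotype, while at 6 h the KO arrays stayed below theirs and the wt arrays overlapped theirs. The fall at 2 h was -1.09 ± 0.28 in KO liver (adjusted p = 0.0145) and -0.95 ± 0.28 in wt liver (adjusted p = 0.0495). At 6 h Abcb1a was lower in KO liver (-0.86 ± 0.28, adjusted p = 0.0356), and had 0.19 ± 0.28 in wt liver (adjusted p = 0.624).

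The KO minus wt difference in the 6 h response of Abcb1a was -1.05 ± 0.39 and was not called (adjusted p = 0.229). Its wt call at 2 h was lost in 9 of the 12 fits that left out 1 array and in 4 of 9 other alternatives. The adjusted p was 0.0554 with the replicate block, 0.0566 without the filter on the mean and 0.321 without untreated wt replicate 2. In KO liver the calls were lost without the array labelled untreated KO replicate 2, with an adjusted p of 0.107 at 2 h and 0.209 at 6 h. They were also lost without KO 2 h replicate 2 (adjusted p = 0.0649) and without KO 6 h replicate 1 (-0.54, adjusted p = 0.246). Kupffer cell markers (7 of 7 tested) summed to 2985 to 3689 in KO liver at 2 h and 3147 to 3489 at 6 h, against 4182 to 4847 untreated. In wt liver they summed to 3140 to 3558 at 2 h and 2487 to 2937 at 6 h, against 4196 to 4323 untreated. Of these 7, 3 were called lower at 2 h in each genotype, and 5 at 6 h in wt liver. In KO liver at 6 h, 5 were called, with Marco higher (0.38, adjusted p = 0.0215) and the others lower. Endothelial markers (8 of 8 tested) summed to 5251 to 5558 in KO liver at 2 h and 5019 to 5643 at 6 h, against 6387 to 6804 untreated, with 3 of 8 lower at each time. Lyve1 at 2 h (0.95) and 6 h (0.98) and Cdh5 at 6 h (0.06) had positive differences in KO liver that were not called. The wt endothelial sums were 6018 to 6512 at 2 h and 6212 to 6898 at 6 h, against 6478 to 6523 untreated. Of these 8, 0 were called in wt liver at 2 h and 7 at 6 h, in both directions. The part of these cells in Abcb1a was not tested.

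Abcb1b lay between 5.12 and 6.19, at percentiles 16.4 to 44.8 of all probe sets of an array, close to the filter on low values. Abcb1b had 5.12 and 5.53 in untreated KO liver, then 6.16 and 5.13 after 2 h of APAP and 5.73 and 5.61 after 6 h. The wt livers gave 5.74 and 6.10 before APAP, 5.66 and 5.61 after 2 h, and 6.19 and 6.09 after 6 h. The 2 KO arrays at 2 h span nearly the whole range, and Abcb1b was called in no comparison with all 12 arrays. Without KO 2 h replicate 2 its difference from untreated KO liver at 2 h was 0.83 (adjusted p = 0.0141), and without replicate 1 it was -0.19, against 0.32 with both.

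ABCG2 (BCRP) exports urate, sulfates and many drugs into bile and is also made by endothelial cells and red blood cell precursors. Abcg2 had 9.11 and 8.86 in untreated KO liver, then 8.66 and 8.35 after 2 h of APAP and 8.25 and 8.28 after 6 h. Wt values were 8.80 and 8.90 before APAP, 8.90 and 9.12 after 2 h, and 8.77 and 8.50 after 6 h. Both KO time points were below the untreated KO arrays without overlap, and so were the wt arrays at 6 h but not those at 2 h. The 2 h difference was a called fall in KO liver (-0.48 ± 0.15, adjusted p = 0.0293) and 0.16 ± 0.15 in wt liver (adjusted p = 0.528). The 6 h difference was a called fall in KO liver (-0.72 ± 0.15, adjusted p = 0.00355) and -0.22 ± 0.15 in wt liver (adjusted p = 0.273). The KO response was not called different from the wt response, at -0.64 ± 0.21 for 2 h (adjusted p = 0.23) and -0.51 ± 0.21 for 6 h (adjusted p = 0.264). The 6 h call held without each array, at -0.85 to -0.60, and the 2 h call was lost with quantile normalization (adjusted p = 0.0535), in a fit of the compared groups alone (adjusted p = 0.0693), without untreated KO replicate 1 (adjusted p = 0.176) and without KO 2 h replicate 2 (adjusted p = 0.173).

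The endothelial sums given above moved the same way as Abcg2 in KO liver. In wt liver they were 6018 to 6512 at 2 h and 6212 to 6898 at 6 h, against 6478 to 6523 untreated, with 0 of 8 called at 2 h (1 at an unadjusted p under 0.05) and 7 of 8 called at 6 h, 3 higher and 4 lower. Erythroid markers (2 of 5 tested: Alas2 and Slc4a1) summed to 395 to 504 in KO liver at 2 h and 265 to 269 at 6 h, against 416 to 729 untreated, and to 828 to 1135 in wt liver at 2 h and 1097 to 1815 at 6 h, against 473 to 590 untreated. The part of these cells in Abcg2 was not tested.

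Between genotypes in the other conditions, 0 of the 10 genes passed in limma. In untreated liver, where 0.00586% of all tested genes were called (1 gene, higher), 0 of the 10 had an unadjusted p under 0.05. At 2 h, where 2.01% were called (0.411% higher and 1.6% lower), 2 had an unadjusted p under 0.05: Abcg2 (-0.50 ± 0.15, adjusted p = 0.0857) and Abcb4. For the difference in response at 2 h, where 0.0293% were called (0.0117% larger and 0.0176% smaller in KO), 1 did: Abcg2. Averaged over the 3 conditions, where 1.78% of all tested genes were called (0.328% higher and 1.45% lower), Abcc4 was higher in KO by 0.60 ± 0.10 (adjusted p = 0.0196). Its value was 1.79 at 6 h, against -0.04 untreated and 0.05 at 2 h. In this average 4 genes had an unadjusted p under 0.05: Abcc4, Abcb1b, Abcb4 and Abcg2. Abcc4 lost its call without either untreated KO array, with adjusted p of 0.0566 and 0.0502.

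Between 2 h and 6 h, 5 of the 10 genes passed in KO liver, where 31.7% of all tested genes did (19.1% higher and 12.6% lower). In wt liver 7 passed, where 27.7% did (10.9% higher and 16.8% lower). The 5 in KO liver were Abcc1 and Abcc4 (higher) and Abcb4, Abcc2 and Abcc6 (lower). In wt liver the same 5 passed in the same directions, and Abcb1a (1.14, adjusted p = 0.0132) and Abcc5 (0.38, adjusted p = 0.0366) were also higher. In KO liver Abcc1 lost this call without 2 h replicate 1 (adjusted p = 0.0546) or 6 h replicate 1 (adjusted p = 0.057), and in a fit of the compared groups alone (adjusted p = 0.0574). In wt liver Abcb1a lost it without 2 h replicate 2 (adjusted p = 0.0964) or 6 h replicate 1 (adjusted p = 0.0738), and Abcc5 without either array of either time (adjusted p up to 0.17) or either untreated KO array (adjusted p = 0.0526).

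The pumps were set beside the other transporters of the hepatocyte. Of all tested genes at 6 h, 15.8% were called higher and 19.1% lower in KO liver, and 16.5% and 22% in wt liver. Of 8 other exporters, 0 rose and 6 fell at 6 h in each genotype, with a median of -0.82 in KO liver and -1.06 in wt liver. Abcb11, the bile salt export pump, fell, with a log2 difference of -1.41 ± 0.12 in KO liver and -1.55 ± 0.12 in wt liver. Slc47a1 (MATE1), which moves organic cations into bile, fell, with a log2 difference of -1.19 ± 0.11 in KO liver and -1.03 ± 0.11 in wt liver. Atp7b, which loads copper into bile, fell, with a log2 difference of -1.02 ± 0.15 in KO liver and -1.38 ± 0.15 in wt liver. The basolateral bile acid exporter genes Slc51a and Slc51b were called at 6 h in neither genotype.

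Of 9 tested uptake carriers of the sinusoidal membrane, 1 rose and 6 fell at 6 h in KO liver, and 1 rose and 7 fell in wt liver. Slc22a5 (OCTN2), the carnitine importer, was the riser, by 1.10 ± 0.17 in KO liver and 1.08 ± 0.17 in wt liver. Slco2b1 fell, with a log2 difference of -1.04 ± 0.12 in KO liver and -1.14 ± 0.12 in wt liver. Slco1a1, an organic anion importer, fell, with a log2 difference of -2.98 ± 0.42 in KO liver and -1.27 ± 0.42 in wt liver. It was not called between genotypes at 6 h (-1.46 ± 0.42, adjusted p = 0.055). For a difference in response at 6 h, 0 of the 9 carriers were called, where 0.487% of all tested genes were. The count lower in wt liver ran from 4 to 7 when 1 array was left out.

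The 36 tested ABC proteins outside the 10 include Abcb11, Abcg5 and Abcg8 from the exporters above. At 6 h in KO liver 3 rose and 15 fell, where 15.8% of all tested genes were called higher and 19.1% lower. In wt liver 3 rose and 16 fell, where 16.5% and 22% of all tested genes did. The median of the 36 was -0.28 in KO liver and -0.29 in wt liver, against 0.10 in KO liver and 0.20 in wt liver for the 10 pump genes. The most lowered was Abca8a, at -3.66 ± 0.25 in KO liver and -2.88 ± 0.25 in wt liver, followed in KO liver by Abcd2, a peroxisomal fatty acid importer (-1.53 ± 0.18 in KO liver and -1.66 ± 0.18 in wt liver). The KO count ran from 10 to 16 when 1 array was left out.

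**Figure D4:**
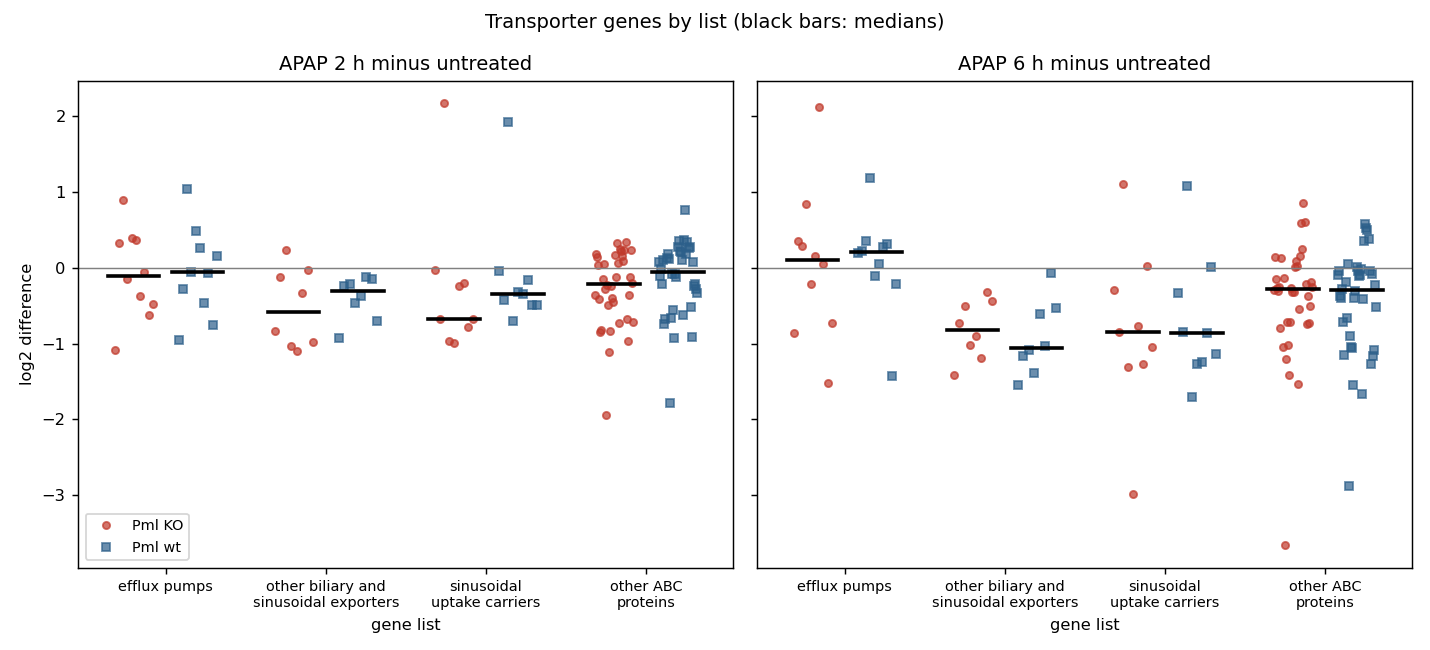
Log2 difference from untreated liver of the same genotype (y axis) for each tested gene of 4 lists, which are the pumps, the other exporters, the uptake carriers and the other ABC proteins, 2 h after APAP in the left panel and 6 h in the right. Each point is 1 gene, red circles are KO, blue squares to their right are wt, and black bars are medians. At 6 h the median of the 10 pump genes lies at 0.10 in KO and 0.20 in wt, and that of the 8 other exporters at -0.82 in KO and -1.06 in wt.

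Genes of proteins that hold pumps in the membrane moved in both directions at 6 h. In KO liver 3 of 8 were higher and 2 lower, and in wt liver 2 were higher and 3 lower. These counts stand against the shares of all tested genes given above. Pdzk1, a scaffold of several sinusoidal and canalicular carriers, fell, with a log2 difference of -0.84 ± 0.14 in KO liver and -1.24 ± 0.14 in wt liver. Ezr (ezrin) rose by 0.64 ± 0.17 in KO liver and 1.14 ± 0.17 in wt liver. Rdx (radixin), the linker that keeps ABCC2 at the canaliculus, fell in wt liver (-0.41 ± 0.10) and had -0.07 ± 0.10 in KO liver, where it was not called. At 2 h Rdx fell in both, at -0.60 ± 0.10 in KO liver and -0.66 ± 0.10 in wt liver.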

How the data were processed

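Liver RNA of 12 samples was measured, with 1 array each. Affymetrix Expression Console and RMA are named in the submitters' processing notes (no version given), and per the labels and values the deposited values are normalized intensity on a linear scale, made by the authors. The log2 of these deposited values was taken here without a pseudocount. Groups came from the sample titles and, for 1 array with a shortened title, from its source name.

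Genes were tested where a probe set with exactly 1 symbol in the platform annotation had a mean log2 of at least 5 over the 12 arrays. All 10 pump genes passed. For genes with several probe sets the brightest on average was taken. A model of 6 group means was fitted to all 12 arrays with limma 3.58.1 (R 4.3.3; lmFit, then eBayes), which left 6 residual degrees of freedom and estimated 4.33 prior ones. P-values are two-sided and Benjamini-Hochberg adjusted over all 17052 genes within each of 12 comparisons. The fit was tested on simulated data. The members, lists, naming rule (Pml, the pumps, up to 4 list members with the smallest p in a comparison, and the 3 nearest genes) and tests were chosen with earlier results of these data known; Slc7a11 was named after its values were seen. The genes nearest to a pump had the smallest root mean square difference of centred log2 values. Same-numbered arrays deviated from their group means with correlations of -0.134 to 0.185. Such values cannot tell whether the numbers pair samples, and the main fit used no pairing. Alternatives were other filters, quantile normalization, log2(value + 16), other uses of probe sets, a variance trend, only the compared groups, the replicate number as a block, and each array left out. No protein sequences were used here.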

Additional observations from a re-analysis of the deposited data

Results flagged for a closer look

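The 6 h response of Abcc4 differed between genotypes by the test of the difference itself. The response in KO minus that in wt was 1.84 ± 0.24 on the log2 scale (limma, adjusted p = 0.0109 over all tested genes). The KO response was 2.12 and the wt response 0.28. Every KO array at 6 h (9.49 and 9.65) lay above every wt array at 6 h (7.83 and 7.72). Without the array labelled untreated KO replicate 2, whose Pml value was within the wt range, the difference was 1.85 (adjusted p = 0.0537).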

How the results depend on the processing

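Of 74 pump gene differences examined in this way, 32 were called. Of these, 18 held under all 12 fits that left out 1 array and under those of the 9 other alternatives that tested the gene. The other 14 were lost in at least 1, and 0 called differences changed sign. Of the 42 not called, 5 gained a call in at least 1 alternative: Abcc5 and Abcb4 in wt liver at 6 h, Abcb1b in KO liver at 2 h, Abcc2 in KO liver at 6 h and Abcc1 between genotypes at 6 h. The number of the 10 pump genes called ran from 2 to 4 without 1 array in wt liver at 2 h, 2 to 4 in wt liver at 6 h (4 with quantile normalization), 3 to 6 in KO liver at 2 h (3 with only the compared groups) and 3 to 5 in KO liver at 6 h. It ran from 4 to 8 between 2 h and 6 h in wt liver, 4 to 5 in KO liver, 1 to 2 between genotypes at 6 h, 0 to 2 in the mean over conditions and 0 to 1 for the difference in response at 6 h. With the replicate number as a block the counts were 3 in wt liver at 2 h, 2 at 6 h, 6 in KO liver at 2 h, 5 at 6 h and 1 between genotypes at 6 h. All these counts without an array come from fits that share the spread over the remaining arrays. Differences that changed sign were all uncalled. Leaving out 1 array at a time, the difference from untreated wt liver ran from -0.18 to 0.076 for Abcc1 at 2 h, and at 6 h from -0.042 to 0.14 for Abcc3 and from -0.18 to 0.56 for Abcb1a. The difference from untreated KO liver ran from -0.20 to 0.082 for Abcc5 at 2 h (0.0022 with quantile normalization), from -0.19 to 0.83 for Abcb1b at 2 h and from -0.043 to 0.13 for Abcc5 at 6 h. Between genotypes Abcc4 ran from -0.21 to 0.12 untreated and from -0.19 to 0.29 at 2 h, and Abcc3 from -0.17 to 0.047 at 6 h. The difference in 6 h response of Abcc6 ran from -0.19 to 0.018. A minimum mean log2 of 7 tested 7 of the 10 genes. With 2 arrays a group, 1 array can decide a call; the cause of each lost call was not tested.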

Other observations

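Genes of enzymes that make the conjugates exported by ABCC2, ABCC3 and ABCC4, or supply their cofactors, moved in both directions at 6 h. The listed glucuronidation genes Ugt1a1, Ugt1a6a, Ugt1a6b and Ugt1a9 had no probe set with exactly 1 symbol and were not tested. Of 8 tested genes of APAP conjugation, 2 rose and 4 fell in KO liver, where 15.8% of all tested genes were called higher and 19.1% lower. In wt liver 2 rose and 5 fell, where 16.5% and 22% of all tested genes did. Gstp1, a glutathione transferase, rose by 1.65 ± 0.16 in KO liver and 1.38 ± 0.16 in wt liver, with the reservation that near-identical Gstp genes may share its probes. Papss2, which makes the sulfate donor PAPS, fell, with a log2 difference of -0.84 ± 0.18 in KO liver and -1.38 ± 0.18 in wt liver. Sult1a1, a phenol sulfotransferase, fell, with a log2 difference of -0.81 ± 0.20 in KO liver and -0.71 ± 0.20 in wt liver. Between genotypes at 6 h, 4.09% of all tested genes were called higher in KO and 4.93% lower. Of the 8, 2 were higher in KO and 0 lower, Ugdh and Gstm1, both also counted among the NRF2 targets. The count ran from 0 to 3 when 1 array was left out.

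Of 11 tested targets of the receptors CAR, PXR and AHR, 1 rose and 5 fell at 6 h in KO liver, and 1 rose and 4 fell in wt liver. The same shares of all tested genes apply to these counts. Cyp2b10, the classic CAR target, was the riser, by 1.02 ± 0.19 in KO liver and 0.77 ± 0.19 in wt liver. Cyp1a2, an AHR target, fell, with a log2 difference of -1.03 ± 0.16 in KO liver and -1.16 ± 0.16 in wt liver. Cyp3a11, the main PXR target, fell in KO liver (-0.45 ± 0.14, adjusted p = 0.033), had -0.13 ± 0.14 in wt liver (adjusted p = 0.496), and was not called between genotypes at 6 h (adjusted p = 0.0532).

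Some pumps had closer neighbours over the 12 arrays than others. For Abcc2 they were Acad11 (0.0684), Hsd17b4 (0.0779) and Sar1b (0.0841), root mean square distances to be read against a spread of Abcc2 itself of 0.26. For Abcc1 they were Lamc1 (0.153), Slc15a3 (0.164) and Tnfrsf23 (0.168), against a spread of 0.56. For Abcb1a they were Casp1 (0.285), Zeb2 (0.286) and P2ry13 (0.296), against a spread of 0.55.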
